A study of Mus musculus with 8 samples.

Results

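The troponin genes of the mouse were followed through 8 RNA-seq libraries of cardiac fibroblasts that had been forced toward a cardiomyocyte fate. They are the rows of the deposited table named Tnni1, Tnni2, Tnni3, Tnnt1, Tnnt2, Tnnt3, Tnnc1 and Tnnc2, 8 of 54532 genes. Of these, 7 passed the filter on low values (0.5 FPKM or more in 2 or more libraries, where FPKM counts fragments per kilobase of gene, relative to library size), as did 15708 genes in all, and Tnnc2 did not. The cells, called MICFs, came from infarcted C57BL/6 hearts on Day 6 after the infarct. All 4 groups shared the genotype that the labels call MGTMyoS overexpression, made with doxycycline-inducible lentiviruses for Mef2c, Gata4 and Tbx5 in 1 construct, for Myocd, for Sall4 and for eGFP, so there was no group without the factors. The in vivo groups were eGFP+ cells sorted from infarcted C57BL/6 hearts on Day 7 (1 week) or Day 14 (2 weeks) after transplantation, in hosts given doxycycline and the immunosuppressants tacrolimus, methylprednisolone and mycophenolate mofetil. The in vitro groups were eGFP+ cells of the same infected population kept in culture with doxycycline, SB431542 and baricitinib for the same times. Each group had 2 libraries, and the sources do not say whether these came from separate animals or cultures, so the p-values measure only the spread between these libraries. The study's mice were 8-week-old males, and no age was given for each sample.

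Troponin is the calcium switch of striated muscle. Troponin C binds calcium, troponin I holds actin and myosin apart until it does, and troponin T ties the complex to tropomyosin on the thin filament. Each subunit has separate genes for separate muscles. Tnni3, Tnnt2 and Tnnc1 make the complex of the adult heart, and cardiac troponin I and T are the proteins measured in blood after a heart attack. Tnni1 and Tnnt1 are the slow skeletal genes, and Tnnc1 also serves slow skeletal muscle. Tnni2, Tnnt3 and Tnnc2 are the fast skeletal genes. In heart development Tnni1 precedes Tnni3, so the balance of the troponin I genes is used as a mark of maturation.

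Troponin I and troponin T genes lie in pairs in the mouse genome. On GRCm38, Tnni1 (chromosome 1 from 135779434 to 135810989) lies 25.4 kb before Tnnt2 (chromosome 1 from 135836354 to 135852260), both on the plus strand. Tnnt1 (chromosome 7 from 4504570 to 4516382) and Tnni3 (chromosome 7 from 4518305 to 4524229) are 1.92 kb apart on the minus strand. Tnni2 (chromosome 7 from 142441808 to 142444410) and Tnnt3 (chromosome 7 from 142498836 to 142516009) are 54.4 kb apart on the plus strand. Tnnc1 stands alone on chromosome 14 from 31208312 to 31211729, and Tnnc2 on chromosome 2 from 164777161 to 164779967.

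The stretches upstream of 4 genes are shown because these were the troponin genes with lower levels in vivo than in vitro at both weeks, and because motifs bound by delivered factors or by their partners can be searched for in them. They are genomic sequence of GRCm38.p6 from RefSeq, in the direction of the gene, and hold only bases outside annotated exons. The stretches of Tnnt2 and Tnnc1 lie before the GENCODE start of their genes, that of Tnnc1 within an intron of Nisch on the other strand, and those of Tnni3 and Tnnt1 lie between exons of longer GENCODE transcripts of the same genes. Capitals mark matches to a GATA motif (the letters GATA, preceded by A or T and followed by A or G), a T-box motif (AGGTGT) or an MCAT motif (CATTCC), each searched on both strands, and the stretch of Tnni3 holds none.
Tnnt2, chr1:135836084-135836333, plus strand: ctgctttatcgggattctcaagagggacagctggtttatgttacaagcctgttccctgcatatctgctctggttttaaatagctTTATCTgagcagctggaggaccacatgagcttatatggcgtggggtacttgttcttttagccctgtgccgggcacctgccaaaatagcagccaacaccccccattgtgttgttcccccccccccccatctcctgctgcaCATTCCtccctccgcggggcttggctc
Tnnc1, chr14:31208062-31208311, plus strand: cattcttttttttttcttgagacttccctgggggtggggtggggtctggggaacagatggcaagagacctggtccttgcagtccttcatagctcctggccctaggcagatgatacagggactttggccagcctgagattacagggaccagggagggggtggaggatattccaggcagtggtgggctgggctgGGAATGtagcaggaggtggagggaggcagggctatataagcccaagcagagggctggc
Tnni3, chr7:4522529-4522694, minus strand: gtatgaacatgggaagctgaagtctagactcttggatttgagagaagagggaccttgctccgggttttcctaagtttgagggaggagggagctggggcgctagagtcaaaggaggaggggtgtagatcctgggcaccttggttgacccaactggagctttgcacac
Tnnt1, chr7:4516005-4516225, minus strand: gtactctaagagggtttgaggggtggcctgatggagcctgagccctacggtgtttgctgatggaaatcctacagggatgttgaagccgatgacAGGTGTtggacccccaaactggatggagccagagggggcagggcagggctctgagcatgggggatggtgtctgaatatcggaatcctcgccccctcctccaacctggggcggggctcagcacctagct
In the 250 bases upstream of its first RefSeq start, Tnnt2 held 1 GATA match (positions -166 to -161, counted from the start) and 1 MCAT match (-27 to -22). Tnnc1 held 1 MCAT match at -58 to -53. The T-box letters were found at -157 to -152 in Tnnt1 and, outside the stretch shown, at -201 to -196 in Tnni3. Tnni1 also held them, at -103 to -98. RefSeq windows matched 6 of the 8 genes, all but Tnni2 and Tnnt3. Among the 6, the first windows held a GATA match in 1, a T-box match in 3, an MCAT match in 2 and a MEF2 or CArG match in 0. Of all 32851 windows of the same length, 26.5% held the GATA motif, 11.8% the T-box motif, 12.6% the MCAT motif, 2.92% the MEF2 motif and 1.47% the CArG motif. No motif overlapped another in the 4 stretches. A match is only a run of letters and does not show binding.

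The libraries held between 12304242 and 14546904 fragments on genes, so that 1 fragment on a gene of 1 kb was worth an FPKM between 0.0650 and 0.0905. The fragments behind each FPKM could be worked out, and limits drawn from them cover counting error only. Markers of the labelled cell type were present in every library, with the summed FPKM of 10 fibroblast markers at 12447 to 13277 and 10193 to 11618 in vivo and 3117 to 3255 and 2134 to 2148 in vitro (1 week and 2 weeks, lower and higher library). The summed FPKM of 10 macrophage markers, the highest being Lyz2, was 2571 to 2933 and 1873 to 2264 in vivo and 5065 to 5780 and 4661 to 5733 in vitro. That of 8 endothelial markers was 80.3 to 91.2 and 73.5 to 80.5 in vivo and 21.2 to 22.3 and 43.1 to 51.5 in vitro. None of the markers in these 3 lists was at or under 3 fragments in both libraries of a group. The lymphocyte list summed to at most 9.02 in any library. Its member Ptprc, the gene of CD45, was at an FPKM of 3.33 to 7.26. The study used CD45 beads to remove macrophages, so Ptprc does not mark lymphocytes alone. The T cell markers Cd3d, Cd3e and Cd3g of the list were at or under an FPKM of 0.105 in each library. These differences moved with the groups compared, and their part in the troponin levels was not tested. Fewer cells with troponin and less troponin RNA per cell cannot be told apart in such bulk libraries.

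The summed FPKM of the 8 troponin genes was 11.3 and 12.5 in the in vivo libraries at 1 week and 72.9 and 75.7 in the in vitro libraries. At 2 weeks it was 13.7 and 18.3 in vivo and 227 and 250 in vitro. Tnnt2 was the largest part of the sum in every library.

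**Figure D1:**
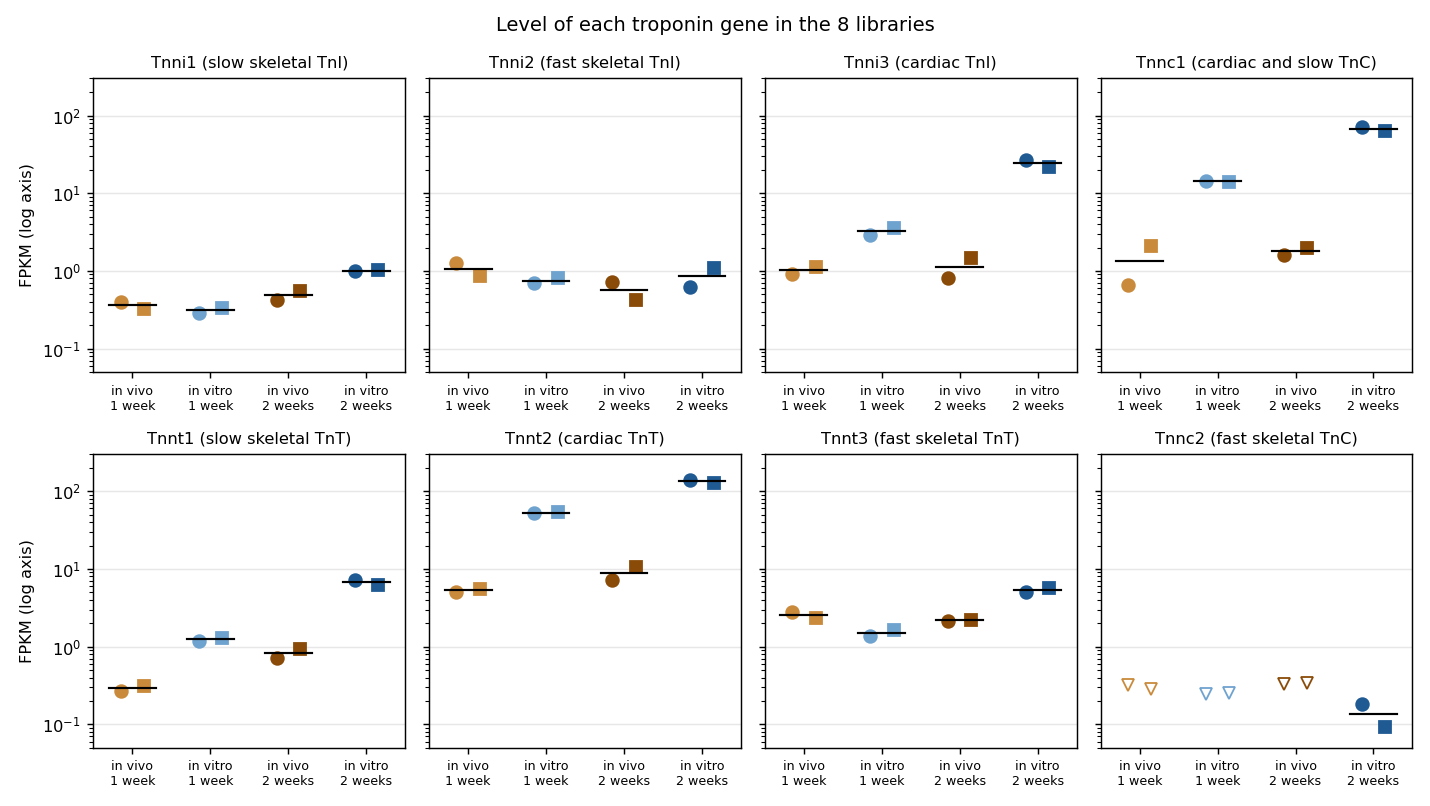
FPKM of each troponin gene (log axis) in the 8 libraries by group, with circles for replicate 1, squares for replicate 2 and a line at the mean of 2. Open triangles stand at the FPKM that 3 fragments would give, for libraries with 0 fragments of Tnnc2. Tnnt2, Tnnc1 and Tnni3 stood highest in vitro at 2 weeks, with means of 134, 66.8 and 24.2, while Tnni1 and Tnni2 stayed at or under 1.26 in every library.

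Cardiac troponin T, Tnnt2, had the highest level of the 8 genes in each group. At 1 week its FPKM was 5.08 and 5.54 in the in vivo libraries and 52.3 and 54.0 in those from culture, and at 2 weeks it was 7.27 and 10.7 against 139 and 128. All 4 in vitro libraries were above all 4 in vivo libraries, and the mean in vitro was 10.01 times that in vivo at 1 week and 14.9 times at 2 weeks. On log2(FPKM + 0.1), where the small constant keeps values of 0 finite, limma gave a log2 fold change in vivo against in vitro of -3.30 ± 0.16 for 1 week (with its standard error, adjusted p = 1.4e-05 by limma with Benjamini-Hochberg over all genes tested) and of -3.90 ± 0.16 for 2 weeks (adjusted p = 5.3e-06). A gene was called where the adjusted p was under 0.01 and the log2 fold change was past 1 or -1. With 461 to 14896 fragments per library, Tnnt2 was also the troponin gene with the firmest counts. In vitro it stood above 96.5% and 96.7% of protein-coding genes at 1 week and above 98.8% and 98.6% at 2 weeks, against 68.8% to 81.3% in vivo.

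Cardiac and slow troponin C, Tnnc1, the calcium-binding subunit, was lower in vivo at both weeks, and its fold change at 1 week was close to that of Tnnt2. Its FPKM was 0.656 and 2.06 in vivo against 14.2 and 14.1 in vitro at 1 week, and 1.62 and 2.001 in vivo against 70.5 and 63.0 in vitro at 2 weeks. The in vitro mean was 10.4 times the in vivo mean at 1 week and 36.9 times at 2 weeks. For 1 week limma gave a log2 fold change of -3.48 ± 0.42 (with its standard error, adjusted p = 7.6e-04) and for 2 weeks -5.14 ± 0.42 (adjusted p = 9.8e-05). The in vivo replicates at 1 week, with 8 and 28 fragments, differed by more than counting error, with 95% exact Poisson intervals of 0.283 to 1.29 and 1.37 to 2.98 FPKM. The log2 fold change at 1 week was -2.72 without in vivo replicate 1 and -4.24 without in vivo replicate 2, and it was called in both cases.

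Cardiac troponin I, Tnni3, the inhibitory subunit of the adult heart, was lower in vivo at both weeks, by more at 2 weeks. At 1 week its FPKM was 0.911 and 1.12 in vivo and 2.90 and 3.60 in vitro, and at 2 weeks 0.816 and 1.45 in vivo and 26.5 and 21.9 in vitro. The ratio of the in vitro to the in vivo mean was 3.21 at 1 week and 21.4 at 2 weeks. The in vivo libraries held only 22 and 30 fragments of Tnni3 at 1 week and 19 and 33 at 2 weeks. For 1 week limma gave a log2 fold change of -1.59 ± 0.26 (with its standard error, adjusted p = 0.0029) and for 2 weeks -4.34 ± 0.26 (adjusted p = 2.4e-05). The call at 1 week was lost when any 1 of the 4 libraries of that week was left out, with an adjusted p by limma of 0.022 and 0.013 without in vivo replicate 1 and 2 and of 0.012 and 0.022 without in vitro replicate 1 and 2. Tnni3 shares 86 exon bases, 4.17% of its exons, with Dnaaf3 on the same strand. Dnaaf3, a factor for the assembly of axonemal dyneins, had an FPKM of 0.9752 to 1.69 in the 8 libraries and was not called at either week.

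Of the slow skeletal genes, Tnnt1 was lower in vivo at both weeks and Tnni1 was not called at either. Tnnt1, slow troponin T, had an FPKM of 0.271 and 0.313 in vivo and 1.18 and 1.31 in vitro at 1 week, and 0.724 and 0.945 in vivo and 7.22 and 6.21 in vitro at 2 weeks. For 1 week limma gave a log2 fold change of -1.78 ± 0.19 (with its standard error, adjusted p = 4.5e-04) and for 2 weeks -2.87 ± 0.19 (adjusted p = 3.9e-05). These in vivo libraries held only 7 to 23 fragments of Tnnt1. Tnni1, slow troponin I, had an FPKM of 0.403 and 0.320 in vivo and 0.289 and 0.335 in vitro at 1 week, so the groups overlapped. At 2 weeks Tnni1 was at 0.418 and 0.553 in vivo and 1.00 and 1.02 in vitro, and these groups did not overlap. For 1 week limma gave Tnni1 a log2 fold change of 0.16 (95% interval -0.52 to 0.84, adjusted p = 0.68), with a negative sign under 2 other scalings, and for 2 weeks -0.94 (95% interval -1.61 to -0.26, adjusted p = 0.031), short of both thresholds.

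Of the fast skeletal genes, Tnnt3 was lower in vivo at 2 weeks, Tnni2 was not called at either week and Tnnc2 was at or near 0 fragments. Tnnt3, fast troponin T, had an FPKM of 2.75 and 2.33 in vivo and 1.35 and 1.65 in vitro at 1 week, so that all in vivo values were the higher ones. At 2 weeks the order was the other way round, with 2.13 and 2.23 in vivo and 5.07 and 5.76 in vitro. For 1 week limma gave a log2 fold change of 0.72 ± 0.15 (with its standard error, adjusted p = 0.0076), under the minimum fold, and for 2 weeks -1.27 ± 0.15 (adjusted p = 4.8e-04). The span of Tnnt3 overlaps that of Prr33 on the other strand with 0 shared exon bases. Prr33 had an FPKM of 6.87 to 11.6 in vivo and 0.720 to 1.29 in vitro.

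Tnni2, fast troponin I, had an FPKM of 1.26 and 0.872 in vivo and 0.694 and 0.805 in vitro at 1 week, and 0.710 and 0.423 in vivo and 0.628 and 1.08 in vitro at 2 weeks. The libraries at 2 weeks overlapped, and no Tnni2 difference passed the test. Limma gave a log2 fold change of 0.44 for 1 week (95% interval -0.39 to 1.27) and -0.51 for 2 weeks (95% interval -1.34 to 0.32). With 7 to 22 fragments per library, differences within these intervals were not detectable at this depth. Tnnc2, fast troponin C, had 0 fragments in 6 libraries, which allows an FPKM of up to 0.244 to 0.340 (3 fragments). The in vitro libraries at 2 weeks held 2 and 1 fragments, an FPKM of 0.181 and 0.0919, and no fold is given. Of the exon bases of Tnnc2, 592 (74.0%) are shared with Ube2c, a gene of mitosis on the other strand, and how fragments in shared bases were counted is not given in the sources used here. Ube2c had an FPKM of 5.26 and 5.40 in vivo and 10.9 and 9.91 in vitro at 1 week, and 1.40 and 1.57 in vivo and 6.31 and 6.51 in vitro at 2 weeks.

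Counted over the 7 genes tested, 4 were lower in vivo and 0 were higher at 1 week (Tnnt2, Tnnc1, Tnni3 and Tnnt1), where 5.07% of all genes tested were called lower and 7.79% higher. At 2 weeks 5 were lower and 0 higher, the same 4 with Tnnt3, where 8.05% of all genes were called lower and 9.02% higher. With both weeks in 1 fit and week as a covariate, the same 4 genes as at 1 week were lower, with log2 fold changes of -3.60 for Tnnt2, -4.31 for Tnnc1, -2.97 for Tnni3 and -2.32 for Tnnt1, against 6.74% of all genes called lower and 8.63% higher. The 7 genes had a median log2 fold change of -1.59 in the earlier and -2.87 in the later week, and that of all genes tested was -0.0058 and -0.0034. Without the scaling between libraries that the deposited FPKM include, the median of all genes moved to -0.34 at 1 week and -0.32 at 2 weeks. The median of the troponin genes relative to it was then -1.57 and -2.86, and the same counts of 4 and 5 were called. In that setting the genes called over the whole table at 1 week were 906 higher against 1558 lower (1224 against 796 in the deposited scaling), while 2 weeks gave 1032 against 2087 (1417 against 1265).

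**Figure D2:**
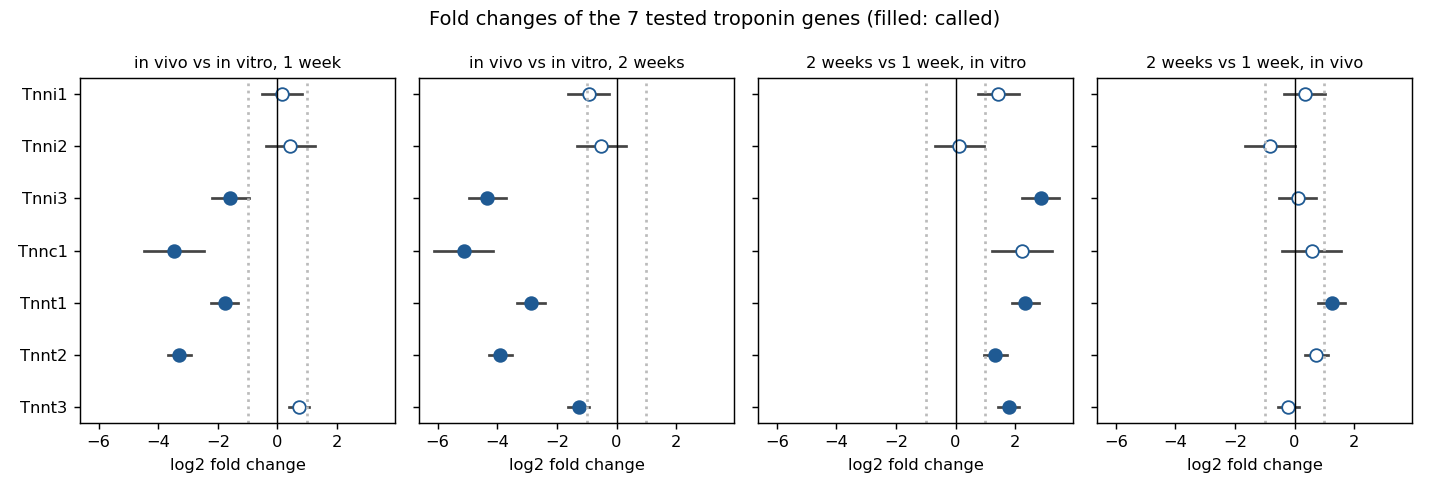
Log2 fold changes on log2(FPKM + 0.1) of the 7 tested troponin genes in 4 comparisons, with 95% intervals from limma. Filled points were called (adjusted p under 0.01 and a log2 fold change past the dotted lines at 1 and -1). The in vivo comparison shows 4 called genes at 1 week and 5 at 2 weeks, all on the negative side, and the time course 4 called genes in vitro and 1 in vivo.

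From 1 week to 2 weeks in vitro, 4 of the 7 genes rose and 0 fell, where 2.76% of all genes tested rose and 1.05% fell. These were Tnni3, 7.44 times its earlier mean (log2 fold change 2.86, standard error 0.26, adjusted p = 8.6e-04 by limma), Tnnt1, 5.40 times (2.34, standard error 0.19, adjusted p = 6.3e-04), Tnnt3, 3.61 times (1.79, standard error 0.15, adjusted p = 6.5e-04), and Tnnt2, 2.52 times (1.33, standard error 0.16, adjusted p = 0.0025). The Tnnt2 call was lost when either in vitro library of either week was left out, with an adjusted p by limma of 0.019 without 1-week replicate 1 or 2, 0.021 without 2-week replicate 1 and 0.019 without 2-week replicate 2. Tnnc1 was at 4.72 times its earlier mean (log2 fold change 2.23, standard error 0.42, adjusted p = 0.012 by limma), just outside the threshold, and passed it without in vivo replicate 1 or 2 of 1 week (adjusted p = 8.3e-04 for each by limma). Tnni1 was at 3.25 times its earlier mean and also just outside (log2 fold change 1.44, adjusted p = 0.013 by limma). For Tnni2 the log2 fold change was 0.13 (95% interval -0.70 to 0.96).

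Over the same interval in vivo 1 of the 7 genes passed the test and 0 fell. This was Tnnt1, at 2.85 times its earlier mean (log2 fold change 1.24, standard error 0.19, adjusted p = 0.0088 by limma), where 1.23% of all genes tested rose and 0.949% fell. This call rested on 16 fragments at 1 week and 41 at 2 weeks over 2 libraries each, and was lost when any of the 8 libraries was left out (adjusted p by limma of 0.014 to 0.051). Tnnt2 was at 1.69 times its earlier mean (log2 fold change 0.72, 95% interval 0.34 to 1.11, adjusted p = 0.029 by limma), and past the thresholds without in vivo replicate 1 of 2 weeks (log2 fold change 1.00, adjusted p = 0.0039 by limma). The log2 fold changes of Tnni3 (0.10, 95% interval -0.51 to 0.72), Tnnc1 (0.57, -0.44 to 1.57), Tnni1 (0.34, -0.34 to 1.02), Tnnt3 (-0.21, -0.56 to 0.14) and Tnni2 (-0.82, -1.65 to 0.01) had 95% intervals that included 0, so changes within these intervals were not detectable with 2 libraries a group.

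Whether the gap between in vivo and in vitro samples differed between the weeks was tested with an interaction contrast. The gap was wider at 2 weeks for Tnni3 (difference of the log2 fold changes -2.76, standard error 0.37, adjusted p = 0.0081 by limma), and it turned from positive to negative for Tnnt3 (-1.99, standard error 0.21, adjusted p = 0.0043 by limma). These 2 of 7 genes were negative, where 1.15% of all genes tested were negative and 0.573% positive. For Tnnt1 the difference was -1.10 (adjusted p = 0.051 by limma), for Tnnc1 -1.66 (0.13), for Tnni1 -1.10 (0.14), for Tnnt2 -0.60 (0.15) and for Tnni2 -0.95 (0.27), and none of these passed. The Tnnt3 call was lost when any 1 of the 8 libraries was left out (adjusted p by limma of 0.011 to 0.023). The Tnni3 call was lost when any library other than the 2 in vivo libraries of 2 weeks was left out (adjusted p by limma of 0.025 to 0.036).

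The make-up of troponin I and troponin T is given as the share of each gene in the summed FPKM of its subunit, as a description without a test. At 1 week Tnni3 made up 35.4% and 48.4% of troponin I in vivo and 74.7% and 76.0% in vitro, and at 2 weeks 42.0% and 59.7% in vivo and 94.2% and 91.2% in vitro. All in vitro libraries had the higher cardiac share. The in vivo shares of troponin I rest on only 48 to 62 fragments of its 3 genes per library, against 124 to 820 in vitro. The slow gene Tnni1 had a mean share of 14.8% (1 week) and 22.2% (2 weeks) in vivo against 7.25% and 3.91% in vitro. That of the fast gene Tnni2 was 43.3% and 26.99% in vivo and 17.4% and 3.37% in vitro. The absolute level of Tnni1 in vitro was higher at 2 weeks, at a mean FPKM of 1.01 against 0.312, while its share was lower, beside Tnni3 at 7.44 times its earlier mean.

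Troponin T was mainly Tnnt2 in every library, at 62.7% and 67.7% in vivo and 95.4% and 94.8% in vitro at 1 week, and 71.8% and 77.1% in vivo and 91.9% and 91.5% in vitro at 2 weeks. In vivo most of the rest was the fast gene Tnnt3, whose mean share there was 31.2% (1 week) and then 18.5% (2 weeks) against 2.68% and 3.73% in vitro. The shares depended on gene length. The length behind the FPKM of Tnnt2 is the union of its exons, 7752 bases, which is 6.46 times the 1200 bases of its principal GENCODE transcript, while that of Tnnt3 is 1583 bases against 1007. Per principal transcript length, the in vivo share of Tnnt2 was 88.1% and then 91.6% and its in vitro share 98.6% and then 97.4%, while Tnnt3 took 10.3% and then 5.57% in vivo and 0.677% and then 0.965% in vitro. In troponin I, Tnni3 had means of 42.0% and then 48.4% in vivo and 75.0% and then 91.8% in vitro on this basis, and Tnni1 had 20.52% and then 29.3% in vivo. At 2 weeks in vivo Tnni1 thus stood above Tnni2, at 22.3%, where by FPKM it stood below it, and their libraries overlapped on both bases. Troponin C was Tnnc1 apart from the 3 fragments of Tnnc2 in vitro at 2 weeks.

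**Figure D3:**
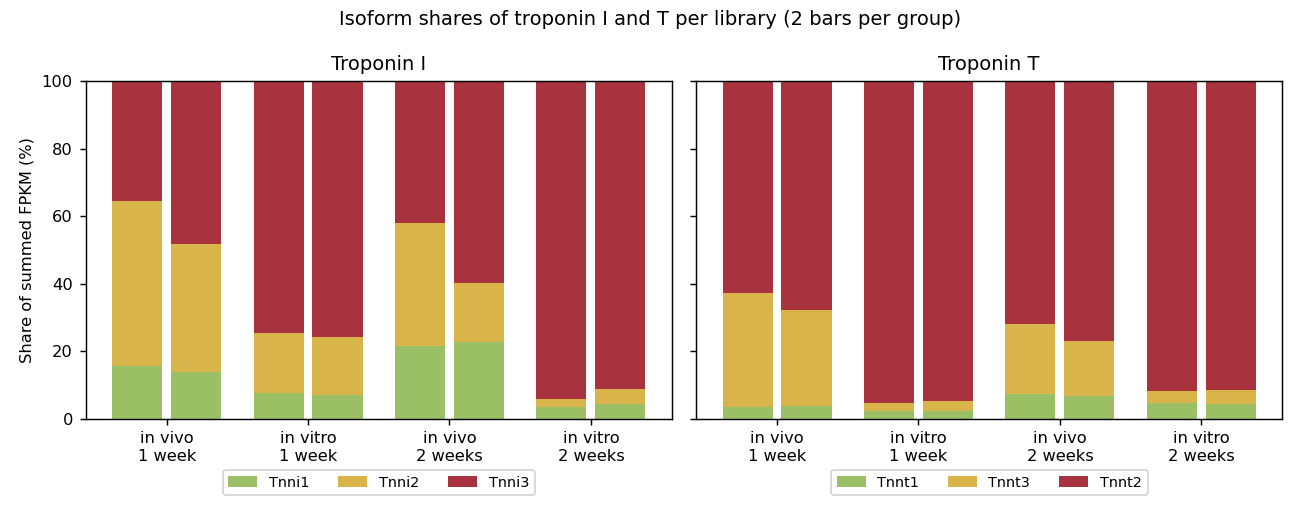
Share (%) of each gene in the summed FPKM of troponin I and of troponin T, with 1 stacked bar for each of the 8 libraries by group. The cardiac genes Tnni3 and Tnnt2 take at least 74.7% and 91.5% of the in vitro bars and at most 59.7% and 77.1% of the in vivo bars. The in vivo bars of troponin I rest on 48 to 62 fragments each.

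The order of the levels differed between the conditions, on the FPKM scale. In vitro the cardiac genes led at both weeks, Tnnt2 before Tnnc1 before Tnni3, with ranges over the libraries that did not overlap. In vivo Tnnt2 also led, but the fast gene Tnnt3 stood next, at a mean FPKM of 2.54 at 1 week and 2.18 at 2 weeks. Below it at 1 week, Tnnc1 and Tnni2 overlapped, as did Tnni2 and Tnni3. At 2 weeks Tnni3 overlapped Tnnt1 below it, and Tnni2 overlapped Tnni1. In vitro at 2 weeks Tnni1 and Tnni2 overlapped. Per principal transcript length Tnnt2 still led in each group and Tnnt3 was still next in vivo, while at 1 week in vitro Tnnt1 and Tnnt3 changed places and overlapped, and at 2 weeks in vivo so did Tnni1 (now above) and Tnni2. On that scale Tnni3 and Tnni2 stood above Tnnc1 in vivo at 1 week, with ranges that overlapped.

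The troponin complex works on a thin filament of actin and tropomyosin, and 9 of 13 genes for its other parts were tested. At 1 week 1 was lower and 1 higher in vivo, with a median log2 fold change of -0.43, where 5.07% of all genes tested were called lower and 7.79% higher. At 2 weeks 4 were lower and 0 higher, with a median of -0.95, where 8.05% of all genes were called lower and 9.02% higher. Cardiac actin, Actc1, had an FPKM of 2.64 and 4.08 in vivo and 34.7 and 38.0 in vitro at 1 week, and 4.11 and 6.66 in vivo and 324 and 288 in vitro at 2 weeks. The groups did not overlap, as for Tnnt2. Also lower at 2 weeks were skeletal actin, Acta1 (log2 fold change -4.65), the tropomyosin Tpm1 (-1.20) and Tmod1, which caps the thin filament at its pointed end (-2.26). Smooth muscle actin, Acta2, was not called (-0.95) but became the fifth gene lower at 2 weeks under both other scalings (-1.44 after quantile normalization, -1.28 on unscaled values), and Tmod1 was called at 1 week on unscaled values (-1.22). Tropomyosins of many cell types were not called, with log2 fold changes at 1 week and 2 weeks of -0.12 and -0.35 for Tpm2, 0.28 and 0.14 for Tpm3 and 0.17 and -0.08 for Tpm4. The sign at 1 week turned without the scaling between libraries for Tpm3 (-0.07) and Tpm4 (-0.17), and for Tpm4 also under quantile normalization (-0.52). Lmod2, a leiomodin that lengthens thin filaments, went the other way at 1 week, with a log2 fold change of 3.57, and was at 0.30 at 2 weeks. Its FPKM at 1 week was 1.60 and 1.28 in vivo and 0.0657 and 0 in vitro. The size of that fold change thus depends on the constant of 0.1 added before the log.

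Troponin T pre-mRNA is spliced into fetal and adult forms, which gene-level values cannot show. Of 10 regulators of this splicing 9 were tested, and at 1 week 1 was lower and 1 higher in vivo (5.07% and 7.79% of all genes), at 2 weeks 2 were lower and 0 higher (8.05% and 9.02% of all genes). Rbm24, a muscle splicing factor, was lower at both weeks (log2 fold change -1.55 and -2.42), and Rbm20, the splicing factor of titin, was lower at 2 weeks (-3.53, after -1.84). Rbm20 was also called at 1 week with quantile normalization (-2.44) and with no scaling between libraries (-2.06), and Celf1 was called lower at 2 weeks in the latter setting (-1.03, against -0.71). Rbfox1 was higher at 1 week (2.33) and not called at 2 weeks (1.21). Of 12 kinases and phosphatases that act on troponin, only Prkca, a protein kinase C, was called, and it was higher in vivo at both weeks (1.38 and 1.54). Without the scaling between libraries 1 more gene of that list was called lower at 1 week.

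**Figure D4:**
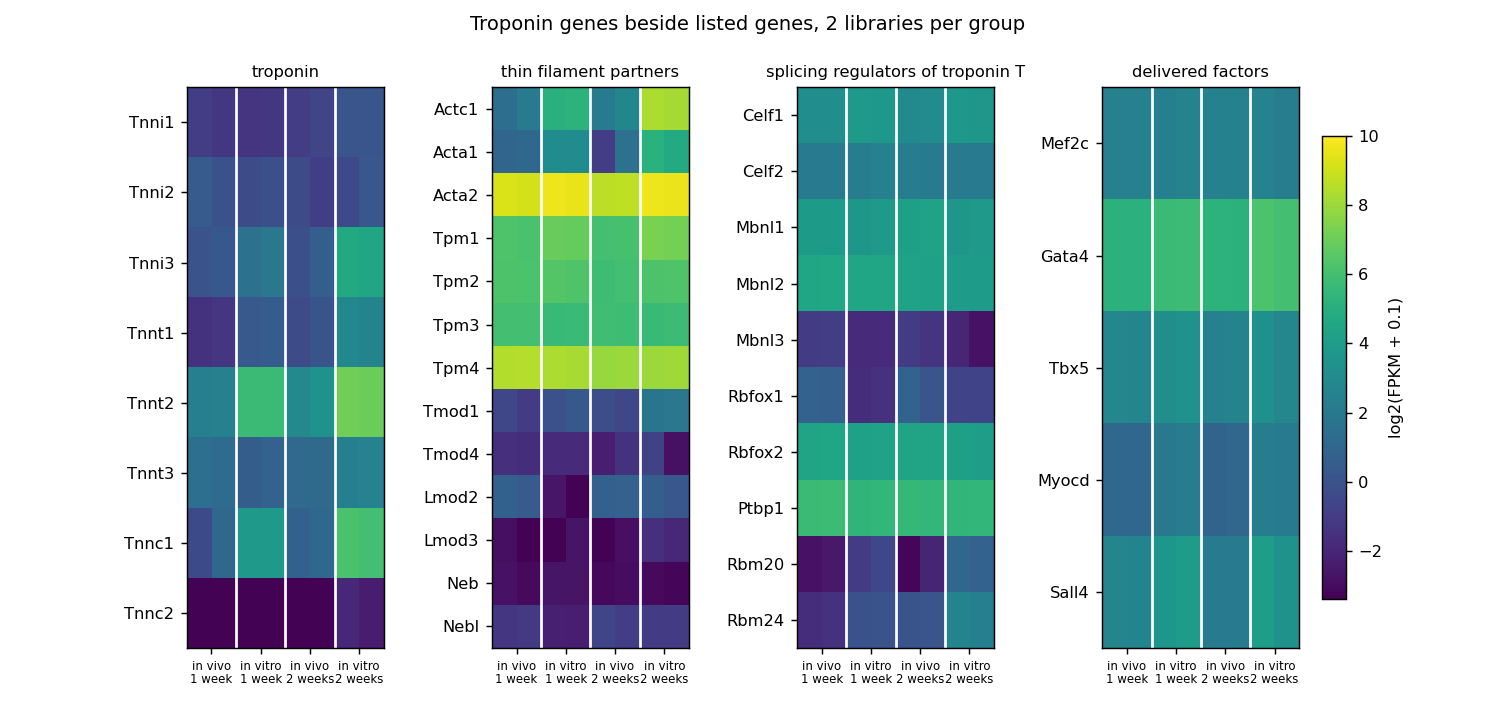
Heat map of log2(FPKM + 0.1) for the troponin genes, their thin filament partners, the splicing regulators of troponin T and the delivered factors, with 1 column for each of the 8 libraries and white lines between the 4 groups. Tnnt2, Tnnc1, Tnni3 and Actc1 are brightest in the in vitro columns of 2 weeks, where Tnnt2 has an FPKM of 139 and 128 and Actc1 of 324 and 288, while Tpm3 and Tpm4 differ little between columns.

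The delivered factors were present in all groups, and reads of the transgenes and of the endogenous genes could not be separated. At 1 week 5.07% of all genes tested were called lower in vivo and 7.79% higher, and at 2 weeks 8.05% and 9.02%. Of the 5 factors, 1 was lower in vivo at 1 week and 2 at 2 weeks. These were Sall4 (log2 fold change -1.11 and -1.65) and, at 2 weeks, Myocd (-1.22, after -0.95 at 1 week). The others were not called, with -0.04 and 0.11 for Mef2c, -0.56 and -0.86 for Gata4 and -0.57 and -0.53 for Tbx5. Without the scaling between libraries Myocd was also called at 1 week (-1.28) and Gata4 at 2 weeks (-1.19), and Mef2c was at -0.38 and -0.22. Their part in the troponin levels was not tested. Of 13 other cardiac and muscle regulators 8 were tested, and Six4, a factor of skeletal muscle genes, was the 1 called, higher in vivo at both weeks (1.71 and 1.75). Under quantile normalization 1 regulator was called lower at 1 week, as was 1 without the scaling between libraries. The skeletal master regulators Myod1, Myog, Myf5 and Myf6 were at an FPKM of at most 0.121 in every library.

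Other muscle genes and markers of other cell types were read beside the troponins. The shares of all genes tested to set beside these counts were 5.07% lower in vivo and 7.79% higher at 1 week. At 2 weeks these shares were 8.05% and 9.02%. Of 18 cardiomyocyte markers tested, in vivo levels were lower for 8 and higher for 1 at 1 week, and lower for 12 and higher for 2 at 2 weeks, with medians of -1.84 and -3.13. The summed FPKM of the 20 listed was 27.7 to 29.6 and 36.9 to 51.7 in vivo and 165 to 177 and 797 to 956 in vitro. The 2 higher at 2 weeks were Pln, the brake on the calcium pump (2.51 and 3.97), and Myl2, ventricular myosin light chain (1.21, not called, and 2.39), whose call was lost under both other scalings. Of 7 skeletal muscle markers tested, 1 week had 3 lower and 1 higher, and 2 weeks had 5 lower and 0 higher, led by Myl1 (-6.82) and Actn3 (-4.94) at 2 weeks. Of 6 smooth muscle markers 1 was lower at each week, Myh11 (-1.22) at 1 week and Des (-1.47) at 2 weeks. Of the other cell types, 6 of 10 fibroblast markers were higher in vivo at each week, macrophage markers had 1 higher and 1 lower in the first week and 5 lower in the later one, and 7 of 8 endothelial markers were higher at 1 week and 4 at 2 weeks. Several of these counts moved with the scaling. Without the scaling between libraries, 4 macrophage markers were lower at 1 week and 7 at 2 weeks, 3 smooth muscle markers were lower at 2 weeks, and 2 endothelial markers were higher at 2 weeks. Quantile normalization gave 3 and 6 lower macrophage markers. Neither gene tested from the lymphocyte list was called, with 2.08 and 1.03 for Cd79a and 0.15 and -0.29 for Ptprc, which does not mark lymphocytes alone.

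Among genes next to the troponin loci, several were higher in vivo, Ube2c was lower at 2 weeks and the others tested were not called. Of all genes tested, 7.79% were called higher in vivo and 5.07% lower at 1 week. At 2 weeks these shares were 9.02% and 8.05%. Beside Tnni2 and Tnnt3, Lsp1, which lies between them, was higher in vivo at both weeks (log2 fold change 1.93 and 1.39), as were Syt8 (2.37 and 2.57) and Prr33 (3.25 and 2.87). Mrpl23, on the other side of Tnnt3, was not called (0.02 and -0.14). Next to Tnnc1, Sema3g was higher (2.504 and 2.78) and Nisch not called (0.05 and 0.06). Beside Tnni3 and Tnnt1, Dnaaf3 (0.29 and 0.45) and Ppp1r12c (0.32 and 0.15) were not called, and beside Tnni1 Phlda3 was not called (-0.14 and 0.24). Ube2c, over Tnnc2, was lower at 2 weeks (-2.04, after -0.95), and Snx21, on the other side of Tnnc2, was not called (-0.23 and -0.10). Lad1 and Pkp1, on the sides of Tnnt2, were at an FPKM of at most 0.191 and 0.415 and were not tested.

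**Figure D5:**
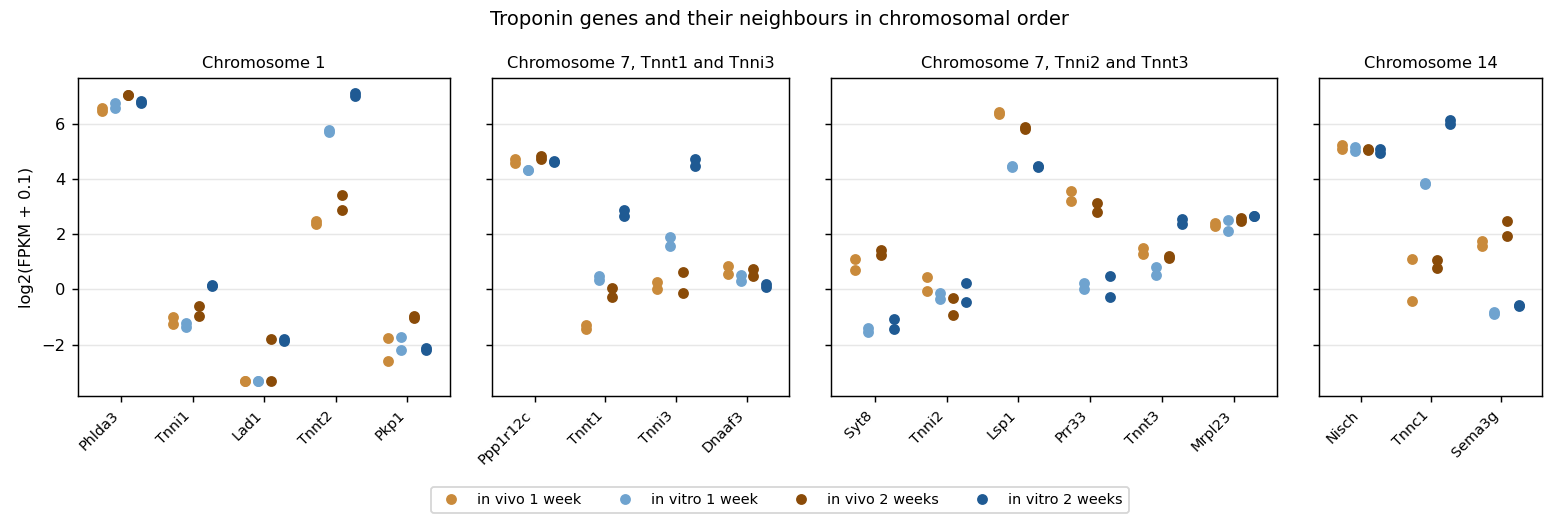
Levels, as log2(FPKM + 0.1), of the troponin genes and their nearest genes at 4 loci, in chromosomal order and without distances, with 1 point for each library, coloured by group. The in vitro points of Tnnt2, Tnnc1, Tnni3 and Tnnt1 lie above the in vivo points of the same week, and those of Lsp1, Syt8, Prr33 and Sema3g below them.

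Genes whose log2 values followed each troponin gene most closely over the 8 libraries are given by Pearson's r, as a description in which the 4 groups, not 8 independent conditions, set the values. For Tnnt2 they were Sord (0.999), Itga3 (0.998) and Ctnna1 (0.997). For Tnnc1 they were Car14 (0.997), Slco2a1 (0.995) and Olfm2 (0.994). For Tnni3 they were Ppp1r14c (0.996), Khdrbs3 (0.992) and Suclg2 (0.991), and for Tnnt1 Gpr34 (0.996), Cyp17a1 (0.991) and Tk2 (0.991). Such values were common, since 10.3% of 11443 candidate genes had an r over 0.9 with Tnnt2, 8.76% with Tnnc1, 6.196% with Tnni3 and 5.65% with Tnnt1. The share was 1.23% for Tnni1, led by Cdo1 (0.990), 0.682% for Tnnt3, led by Apoe (0.983), and 0.0874% for Tnni2, led by Yeats4 (0.943). Among the troponin genes themselves, r was 0.983 between Tnnt2 and Tnnc1 and 0.960 between Tnni3 and Tnnt1, and lay between -0.158 and 0.260 for Tnni2 with the others.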

How the data were processed

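RNA of eGFP+ MICFs was sequenced in 8 libraries, 2 for each of 4 groups taken from the labels. Per the labels, CASAVA, HISAT2 2.0.5 and mm10 were used. The counting tool and its use of strand are not given in the sources used here. The authors deposited FPKM per gene, per exon-union length and scaled between libraries. With a tolerance of 0.01, 100% of values were whole fragments, 12304242 to 14546904 per library, which sets the counting error. Genes at 0.5 FPKM or more in 2 or more libraries entered limma 3.58.1 (R 4.3.3) on log2(FPKM + 0.1), with 4 group means of all 8 libraries and an intensity trend. With both weeks together, week was a covariate. A gene was called at a Benjamini-Hochberg adjusted p under 0.01 over all genes tested and a log2 fold change beyond 1 or -1. The genes named are the troponin genes, the listed partners and markers, the nearest neighbours, and for each troponin gene the 3 most like it by Pearson's r among genes of mean FPKM at least 1. The members and lists were chosen with earlier results of these data known. Fits were tested on simulated data. Alternatives covered pseudocount, filter, scaling, thresholds, voom, the variance trend, the replicate block and leaving out each library. Replicates differed beyond sampling noise, and same-numbered libraries did not deviate together across the genes tested. Shares and levels per principal transcript length were added after the data had been seen.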

Additional observations from a re-analysis of the deposited data

Results flagged for a closer look

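For 2 troponin genes the gap between transplanted and cultured cells differed between the weeks in the fit to all 8 libraries, by an interaction contrast in limma with Benjamini-Hochberg adjustment over all genes tested. For Tnni3 the log2 fold change at 2 weeks minus that at 1 week was -2.76 (standard error 0.37, adjusted p = 0.0081), from -1.59 to -4.34. For Tnnt3 it was -1.99 (standard error 0.21, adjusted p = 0.0043), from 0.72 to -1.27. Neither call was firm, since each was lost in 11 of the 17 other settings. Leaving out any 1 of the 8 libraries ended the Tnnt3 call, and leaving out any library other than the 2 in vivo libraries of 2 weeks ended the Tnni3 call. Over these settings the difference ran from -3.14 to -2.38 for Tnni3 and from -2.13 to -1.51 for Tnnt3. No cause was tested.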

How the results depend on the processing

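Of 404 log2 fold changes of troponin genes recomputed under processing alternatives, 377 kept direction and side of the threshold. Of 336 with 1 library left out, 297 did. Where that library was outside the groups compared, the fold change could not move and only the call could. Counts of called genes are not part of these tallies. The 4 genes called in vivo against in vitro at 1 week came to 3 to 5 under processing alternatives and 3 to 4 leave-one-out. The count of 5 came at an adjusted p under 0.05 with no minimum fold. The gene added there was Tnnt3, which was higher in vivo (log2 fold change 0.72). The 5 genes at 2 weeks came to 5 to 6 and 5, and the 4 with both weeks to 4 throughout. The 4 that rose in vitro came to 4 to 6 and 3 to 5. The count of 1 gene called over time in vivo became 0 with a pseudocount of 1, with no filter and without the scaling between libraries. It was also 0 with voom on the recovered fragments, with the replicate block, without the variance trend and with only the 4 libraries compared. It became 2 at an adjusted p under 0.05 with no minimum fold, and was 0 to 1 leave-one-out. The leave-one-out count of 1 was Tnnt2 without in vivo replicate 1 of 2 weeks, and not Tnnt1. The 2 interaction calls became 1 with a pseudocount of 0.01 and under quantile normalization, 0 with no filter, with the replicate block and without the variance trend, and 0 to 1 leave-one-out. The cause was not tested.

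Signs turned for Tnni1 at 1 week under quantile normalization (-0.045) and without the scaling (-0.10), and for Tnni2 over both weeks with voom (0.033). With 1 library left out, signs turned for 6 values. Leave-one-out values ran from -0.23 to 0.20 for Tnni2 over both weeks, with 0.18 without in vivo 2-week replicate 2 and 0.20 without in vitro 2-week replicate 2. They ran from -0.22 (without in vitro 2-week replicate 2) to 0.48 for Tnni2 over time in vitro. They ran from -0.28 (without in vivo 2-week replicate 2) to 0.48 for Tnni3 over time in vivo, with -0.03 without 1-week replicate 1, and from -0.19 (without in vivo 1-week replicate 1) to 1.33 for Tnnc1 over time in vivo. None of these was called. The call of Tnnt1 at 1 week was lost with a pseudocount of 1 (-0.79).

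Over all genes, an adjusted p under 0.05 with no minimum fold gave 6605, 7825, 3942, 2476, 1558 and 7969 genes (1 week, 2 weeks, time in vitro, time in vivo, interaction, both weeks), against 2020, 2682, 599, 342, 271 and 2414. Both weeks gave 1503 with a pseudocount of 1, time in vivo 57 with only 4 libraries, and the interaction 72 with no filter, 473 with voom, 27 with the replicate block and 71 without the trend. Leaving out a library gave 2 (in vivo 1-week replicate 1) to 190 for the interaction, 90 (the same library) to 271 for time in vivo and 223 (in vitro 2-week replicate 2) to 604 for time in vitro. Without the scaling, both weeks split into 981 higher and 1880 lower, against 1355 and 1059. Same-numbered libraries deviated with correlations of -0.02 to -0.01 across the genes tested. A correlation over all these genes cannot decide whether same-numbered libraries shared a cell preparation. In vivo libraries held under 30 fragments for Tnni1, Tnni2, Tnnt1 and Tnnc1, and 19 to 33 for Tnni3. With 2 libraries a group, small differences of these genes were beyond the depth.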

Other observations

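The ratios between cardiac subunits, given as values without a test, were not the same in all groups on the FPKM scale. In vivo they rest on only 8 to 28 fragments of Tnnc1 and 19 to 33 of Tnni3 per library, so counting error bears on them. Tnnt2 was 4.96 to 5.58 times Tnni3 in vivo and 14.98 to 18.04 times in vitro at 1 week, and 7.40 to 8.91 times in vivo and 5.24 to 5.87 times in vitro at 2 weeks. Tnnt2 over Tnnc1 was 3.67 to 3.83 in vitro at 1 week and 1.97 to 2.04 at 2 weeks, against 2.68 to 7.74 and 4.495 to 5.35 in vivo. Tnnc1 over Tnni3 was 3.91 to 4.91 in vitro at 1 week and 2.66 to 2.88 at 2 weeks, against 0.721 to 1.85 and 1.38 to 1.98 in vivo. These sizes rest on the exon-union lengths behind the FPKM. Per principal transcript length Tnnt2 was 14.2 to 15.9 times Tnni3 in vivo and 42.8 to 51.5 times in vitro at 1 week, and 21.1 to 25.4 and 14.96 to 16.8 times at 2 weeks. On that basis Tnnt2 over Tnnc1 was 16.4 to 17.1 in vitro at 1 week and 8.82 to 9.11 at 2 weeks, against 11.995 to 34.6 and 20.1 to 23.96 in vivo, and Tnnc1 over Tnni3 was 2.496 to 3.13 and 1.70 to 1.84 in vitro against 0.460 to 1.18 and 0.882 to 1.26 in vivo.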
